A study of Mus musculus with 3 samples.

Results

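The TRIM genes encode proteins with a RING finger, B-boxes and a coiled coil, most of which act as ubiquitin ligases. They were taken from a table of mouse corneal RNA counts as the protein-coding rows whose symbol is Trim followed by a number and at most 1 letter. The rule found 55 genes of 21760 in the table, 16787 of which were protein coding. RNA was sequenced from cornea in 3 libraries with 1 library per group. In 1 group PNU-282987, which activates the nicotinic receptor made of α7 subunits, was dropped on the eye 3 times daily, and the series asks about that receptor in dry eye. In the excision group the lacrimal gland, the source of tears, was cut out, and in the sham group an incision was placed there but the glands were left alone. The labels give no genotype, strain or age, and do not say whether the PNU-282987 mice had also lost the gland or how many corneas went into a library.

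The RING finger of a TRIM protein recruits a ubiquitin-conjugating enzyme, and the C-terminal domain, most often a PRY-SPRY fold, binds the target. Many TRIM genes are themselves induced by interferon, and their products restrict viruses or tune the sensors and adaptors of antiviral signalling. Others act in chromatin repression, in muscle, in neurons or in stratified epithelium, the tissue that covers the cornea. The family is large in the mouse partly because a block of PRY-SPRY genes on chromosome 7, the Trim5, Trim12, Trim30 and Trim34 genes, has been duplicated repeatedly.

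Total counts were 39616004 in PNU-282987, 37692972 in excision and 37703843 in sham. Corneal epithelial markers such as Krt12 and Pax6 summed to 94715, 79591 and 83579 CPM in PNU-282987, excision and sham. CPM means counts per 1000000 of the scaled library. Corneal epithelium was thus present in each library. Corneal endothelial markers summed to 950, 299 and 1256 CPM, and keratocyte and stroma markers to 1138, 1136 and 1748 CPM, in the same order. All 9 endothelial and all 10 stromal markers were below sham in excision, and likewise in PNU-282987. Lens transcripts stood at 792 CPM in PNU-282987, 170 CPM in excision and 854 CPM in sham, and goblet and gland transcripts at 5279, 3395 and 2171 CPM. Cryab gave 5483 of the 6315 lens counts in excision, where Cryaa had 175 counts, against 8774 in PNU-282987 and 9525 in sham. Krt13 gave 179377 of 204990 goblet and gland counts in PNU-282987, 114747 of 126015 in excision and 78979 of 84777 in sham. Muc5ac had 2980, 11 and 1 counts and Gp2 3801, 4 and 5, whereas Tff3 had 126, 107 and 99. Of the 12 goblet and gland markers, 11 were above excision in PNU-282987 and 1 below. With 1 library per group no spread between animals could be estimated, no test was possible, and each ratio compares 2 libraries. Counts were scaled to library size with TMM factors. Each fold is followed by a 95% interval for counting error alone. A gene was called higher or lower when the fold was at least 2 and that interval excluded equal levels.

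Of the 55 members, 45 had at least 20 counts in at least 1 library and were given ratios. The other 10 were Trim6, Trim10, Trim31, Trim38, Trim43a, Trim55, Trim60, Trim61, Trim66 and Trim69, which had between 0 and 15 counts in any library. The member nearest below the minimum was Trim31, with 8 counts in PNU-282987, 15 in excision and 6 in sham. The members nearest above it were Trim15 with 17, 21 and 14 counts, Trim9 with 9, 22 and 11, Trim30c with 0, 18 and 22, and Trim46 with 11, 18 and 24. Each of these 4 passed through a single library, Trim15 and Trim9 through excision and Trim30c and Trim46 through sham, so their place among the measured members depended on the library in which they were high.

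Sequence around the starts of genes in the chromosome 7 block is shown here, with Trim21 and Trim26 of the interferon-inducible list beside them. The block was chosen because the members furthest apart between excision and sham, Trim30d and Trim30a, lie there. In the RefSeq promoter table (GRCm38.p6), which spans 250 bases before to 50 bases after each start, 43 of the 55 members matched by gene ID. The core of the interferon-stimulated response element, searched as GAAANNGAAA on both strands with overlapping matches allowed, was in 9 of these 43 members (20.9%). Among all 27025 genes with a window 3.99% held it, and among all 32851 windows 3.44%. The 9 were Trim2, Trim5, Trim12a, Trim12c, Trim21, Trim26, Trim30a, Trim30d and Trim34a. A match is a run of letters and not evidence of binding, and duplicated genes can carry it together. The windows of 60 bases below are written 5′ to 3′ along the gene, with the matched letters in capitals.
Trim30d: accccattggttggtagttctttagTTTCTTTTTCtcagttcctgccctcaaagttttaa
Trim30a: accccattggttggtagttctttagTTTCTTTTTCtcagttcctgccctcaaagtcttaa
Trim30c: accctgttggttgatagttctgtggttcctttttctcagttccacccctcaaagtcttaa
Trim5: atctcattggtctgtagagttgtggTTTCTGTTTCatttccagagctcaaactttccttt
Trim12a: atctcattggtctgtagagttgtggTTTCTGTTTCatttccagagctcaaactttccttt
Trim12c: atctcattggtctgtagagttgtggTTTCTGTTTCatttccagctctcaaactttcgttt
Trim34a: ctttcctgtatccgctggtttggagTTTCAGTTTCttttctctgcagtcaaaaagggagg
Trim21: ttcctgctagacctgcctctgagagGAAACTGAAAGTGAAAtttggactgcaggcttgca
Trim26: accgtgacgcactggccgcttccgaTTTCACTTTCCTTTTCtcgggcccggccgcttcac

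The Trim30d window is chr7:104507856-104507915 on the minus strand and the Trim30a window chr7:104465195-104465254 on the minus strand. These windows were identical at 59 of 60 bases, with the match starting 41 and 36 bases before the start of Trim30d and Trim30a. Both windows of Trim30a in the table held the match. For Trim30c, on chr7:104400881-104400940 of the minus strand, the stretch most like the Trim30a window is printed in lower case. It was identical to it at 52 of 60 bases and held no match. The Trim5 window (chr7:104288121-104288180), the Trim12a window (chr7:104315451-104315510) and the Trim12c window (chr7:104353344-104353403) are also on the minus strand. Trim5 and Trim12a were identical at all 60 bases and each was identical to Trim12c at 57. The Trim34a window is chr7:104244442-104244501 on the plus strand, the Trim21 window chr7:102565435-102565494 on the minus strand with 2 overlapping matches, and the Trim26 window chr17:36836961-36837020 on the plus strand, also with 2. Trim34b had no match in its own window.

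The whole promoter window of Trim30d, chr7:104507800-104508099 on the minus strand, is shown because this gene differed most of the family between libraries.
Trim30d: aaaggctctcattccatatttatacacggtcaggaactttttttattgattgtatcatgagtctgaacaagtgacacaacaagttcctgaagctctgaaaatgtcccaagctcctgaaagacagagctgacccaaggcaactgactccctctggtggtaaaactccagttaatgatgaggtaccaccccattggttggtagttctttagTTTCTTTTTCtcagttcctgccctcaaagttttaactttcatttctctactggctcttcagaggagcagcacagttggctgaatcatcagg

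Members differed widely in level. Trim29, whose product lacks a RING finger and is abundant in stratified epithelia, had 71990 counts in PNU-282987, 59228 in excision and 58094 in sham. It took 55.6% of all TRIM counts in PNU-282987, 46.6% in excision and 51.6% in sham. To compare genes, counts were divided by the length of each gene's merged exons in GENCODE M21, an annotation that may differ from the authors' own. On that scale of CPM per kilobase of exon (RPKM), Trim29 stood at 534 RPKM in PNU-282987, 459 RPKM in excision and 428 RPKM in sham. Its mean over the libraries was 10.3 times that of the next gene.

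That next gene was Trim25, which encodes a ligase that ubiquitinates the viral RNA sensor RIG-I, at 41.6 RPKM in PNU-282987, 57.6 RPKM in excision and 38.6 RPKM in sham. Trim16, a keratinocyte B-box gene, followed at 28.8, 29.0 and 23.6 RPKM, and Trim28, the corepressor recruited by KRAB zinc finger proteins, at 24.1, 23.5 and 20.2 RPKM. The median measured member had 3.82 RPKM in PNU-282987, 3.46 RPKM in excision and 3.49 RPKM in sham. The family as a whole took 0.327% of the counts in PNU-282987, 0.338% in excision and 0.299% in sham.

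**Figure D1:**
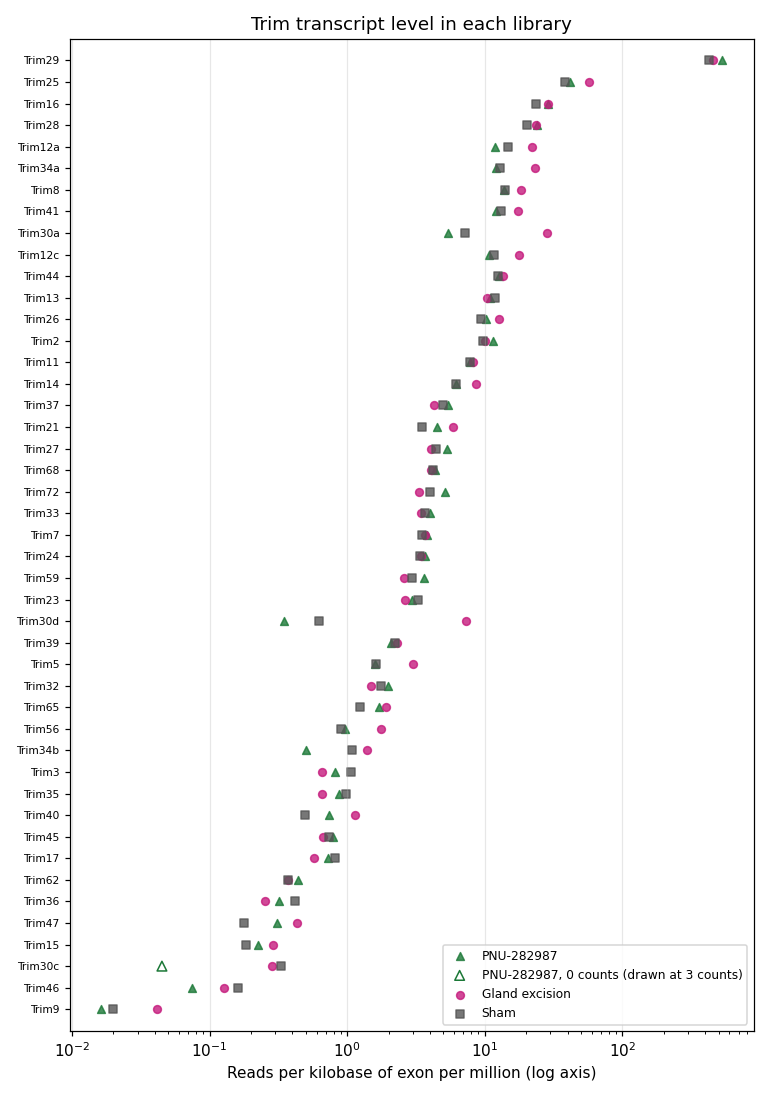
RPKM, or CPM per kilobase of exon (log axis), of the 45 measured Trim genes, 1 point per library (triangle PNU-282987, circle gland excision, square sham), ordered by mean level, with an open symbol where a gene had 0 counts. Trim29 lies near 428 to 534 RPKM, and the circles of Trim30a and Trim30d lie to the right of the other libraries.

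The excision library held more Trim30a and Trim30d transcript than the sham library. Of the 45 measured members 4 were higher (8.89%) and 0 were lower, whereas 4.01% of all 14170 genes with a ratio were higher and 5.48% lower. The median log2 ratio of the members was 0.10, beside -0.003 over all genes. Within 1.5-fold in either direction lay 31 of 45 members, beside 11369 of 14170 genes.

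Trim30d (gene ID 209387), a mouse relative of Trim30a, had 51 counts in PNU-282987, 1013 in excision and 92 in sham. Excision was far above both other libraries, and 11.6-fold higher than sham (9.35 to 14.5). That ratio ranked 47 from the top of 14170 genes. Trim30a (gene ID 20128), an interferon-inducible gene whose product in the mouse dampens Toll-like receptor signalling to NF-kB, had 868 counts in PNU-282987, 4315 in excision and 1150 in sham. Excision was again the highest library, 3.95-fold higher than sham (3.70 to 4.22), at rank 190. Together the pair had 919 counts in PNU-282987, 5328 in excision and 1242 in sham. Trim30d made up 5.55% of these in PNU-282987, 19.0% in excision and 7.41% in sham.

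Of the 50-base stretches in the GENCODE M21 transcripts of Trim30d, 7.49% also occurred in transcripts of another gene, most often Trim30a, and of those of Trim30a 5.98% did, most often Trim30d. Reads from such stretches could be assigned to either gene. The neighbouring Trim30c (gene ID 434219) had 0 counts in PNU-282987, 18 in excision and 22 in sham. It did not share the high value in excision, where it was 1.16-fold lower than sham with an interval of 0.595 to 2.30 that included equal levels. Only 0.660% of its stretches occurred in another gene.

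Marker sums of macrophages and of T and NK cells were highest in the excision library, and that of neutrophils was lowest there. The 12 macrophage and monocyte markers summed to 45.6 CPM in PNU-282987, 71.6 CPM in excision and 32.6 CPM in sham, with none at 0 in any library. For excision against sham 8 of 12 were called higher, where 4.01% of all genes were. The 9 T and NK cell markers in the table summed to 0.824 CPM in PNU-282987, 5.76 CPM in excision and 0.358 CPM in sham, and 4 of them passed the minimum. Cd3g and Klrb1c were at 0 in PNU-282987, Klrb1c in excision, and Cd3d, Cd3g, Cd4 and Cd8a in sham. The 9 neutrophil markers in the table summed to 59.8 CPM in PNU-282987, 32.5 CPM in excision and 63.3 CPM in sham, and Ly6g was at 0 in excision. Ltf alone had 1486 of the 2323 neutrophil marker counts in PNU-282987, 995 of 1208 in excision and 920 of 2472 in sham. Of 7 measured neutrophil markers 6 were called lower in excision than in sham, where 5.48% of all genes were. In PNU-282987 against sham 5 of the 7 were called lower, where 4.96% of all genes were. The part of these cell types in the Trim30a and Trim30d values was not tested. In bulk tissue, fewer cells of a type and less RNA per cell cannot be told apart.

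Of the other members of the chromosome 7 block, Trim5, Trim12a, Trim12c and Trim34a were higher in excision than in sham by less. By the RefSeq order of genes on GRCm38.p6, the block runs Trim6, Trim34a, Trim5, Trim12a, Trim34b, Trim12c, Trim30b, Trim30c, Trim30a and Trim30d, and Trim30b was not analysed here. Trim34a (gene ID 94094) had 1207 counts in PNU-282987, 2237 in excision and 1298 in sham, and was 1.81-fold higher in excision than in sham (1.69 to 1.94). Trim5 (gene ID 667823), a mouse relative of the primate retrovirus restriction factor, had 228, 410 and 234 counts, 1.84-fold higher in excision than in sham (1.57 to 2.17). Both stood just under the 2-fold line, with the PNU-282987 and sham libraries close to each other.

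Trim12c (gene ID 319236), another relative of that factor, had 1549 counts in PNU-282987, 2465 in excision and 1706 in sham, 1.52-fold higher in excision than in sham (1.43 to 1.62). Trim12a (gene ID 76681) had 2677, 4706 and 3306 counts, 1.498-fold higher in excision than in sham (1.43 to 1.57). Trim34b (gene ID 434218) had 36, 96 and 78 counts, and its interval for excision against sham, 0.9504 to 1.77, included equal levels. These duplicated genes can exchange reads: 56.8% of the 50-base stretches of Trim34b, 39.8% of those of Trim34a, 36.3% of those of Trim5, 33.0% of those of Trim12c and 10.4% of those of Trim12a occurred in another gene. The split between such copies is uncertain.

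**Figure D2:**
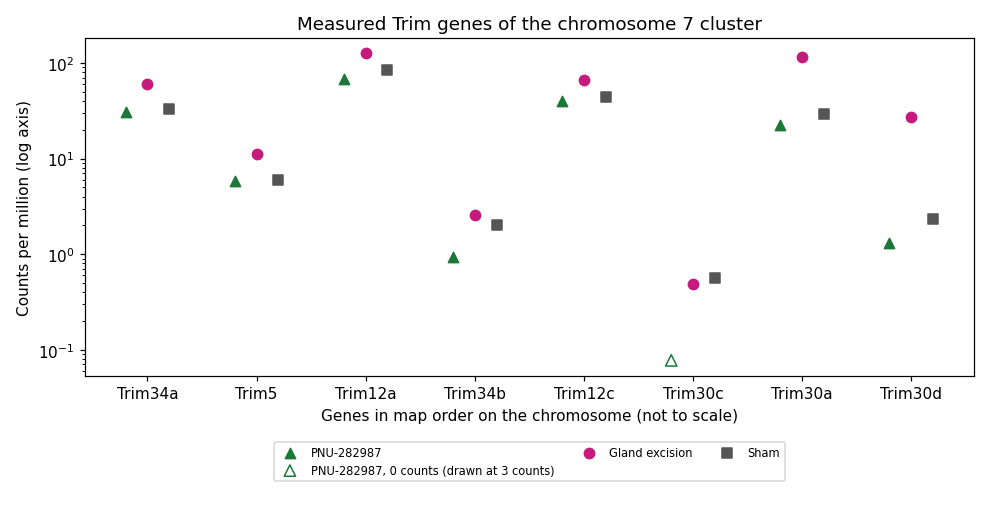
CPM (log axis) of the 8 measured Trim genes of the chromosome 7 block in map order, 1 point per library (triangle PNU-282987, circle gland excision, square sham), with the open triangle marking 0 counts of Trim30c drawn at 3 counts. The circle lies above the square for 7 of 8 genes, by most for Trim30d (1013 counts in excision and 92 in sham), and Trim30c is the exception.

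Outside the block, 2 members were called higher in excision than in sham, both at low counts. Trim40 (gene ID 195359), best known from the gut, had 69 counts in PNU-282987, 102 in excision and 46 in sham, 2.33-fold higher in excision (1.63 to 3.38). Trim47 (gene ID 217333), a PRY-SPRY ligase, had 33 counts in PNU-282987, 44 in excision and 19 in sham, 2.44-fold higher in excision (1.39 to 4.42). Trim47 overlaps exons of Trim65 on the same strand in GENCODE M21, and Trim65, which encodes a ligase for the RNA sensor MDA5, had 390, 415 and 285 counts. Trim65 was 1.53-fold higher in excision than in sham (1.31 to 1.79), and reads of the overlap could fall to either gene. Of the low-count members, Trim9, a neuronal ligase gene, was 2.10-fold above sham in excision with an interval of 0.978 to 4.81, which did not exclude equal levels at this depth.

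The remaining interferon-inducible members were higher in excision than in sham by less than 2-fold. Trim56, which encodes a ligase linked to STING and Toll-like receptor signalling, had 347 counts in PNU-282987, 610 in excision and 327 in sham, 1.96-fold higher in excision (1.71 to 2.25). Trim21, the cytosolic antibody receptor, had 650, 810 and 506 counts, 1.68-fold higher in excision than in sham (1.51 to 1.89). Excision was the highest library for both genes, and PNU-282987 lay between excision and sham.

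Trim25 had 9288 counts in PNU-282987, 12312 in excision and 8673 in sham, 1.49-fold higher in excision than in sham (1.45 to 1.54). Trim14, a RING-less adaptor of the mitochondrial antiviral protein MAVS, had 1043, 1391 and 1055 counts, 1.39-fold higher in excision than in sham (1.28 to 1.504). Trim26, a PRY-SPRY ligase linked to interferon regulation, had 2708, 3229 and 2509 counts, 1.35-fold higher in excision than in sham (1.29 to 1.43). The large counts make these intervals narrow, but they say nothing of the spread between corneas.

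As a list, the interferon-inducible TRIM genes had 13 measured members of 16 in the table. In excision against sham 2 were called higher and 0 lower, where 4.01% and 5.48% of all genes were. Above equal levels were 12 and below 1, and the median log2 ratio was 0.60. Of the 13, 8 lie in the duplicated chromosome 7 block, as do both called genes, so they are not separate observations. The 32 measured members outside that list had 2 called higher and 0 lower and a median of 0.01, which became -0.06 when counts were scaled to library totals. By 1.5-fold rather than 2-fold, 10 of all 45 members were higher (22.2%) where 8.23% of all genes were, and 2 were lower (4.44%) where 9.04% were. The 10 were Trim5, Trim12c, Trim21, Trim30a, Trim30d, Trim34a, Trim40, Trim47, Trim56 and Trim65. The 2 lower members were Trim3, an NHL-domain gene of the nervous system with 145 counts in PNU-282987, 111 in excision and 191 in sham, and Trim36, with 61, 46 and 81.

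**Figure D3:**
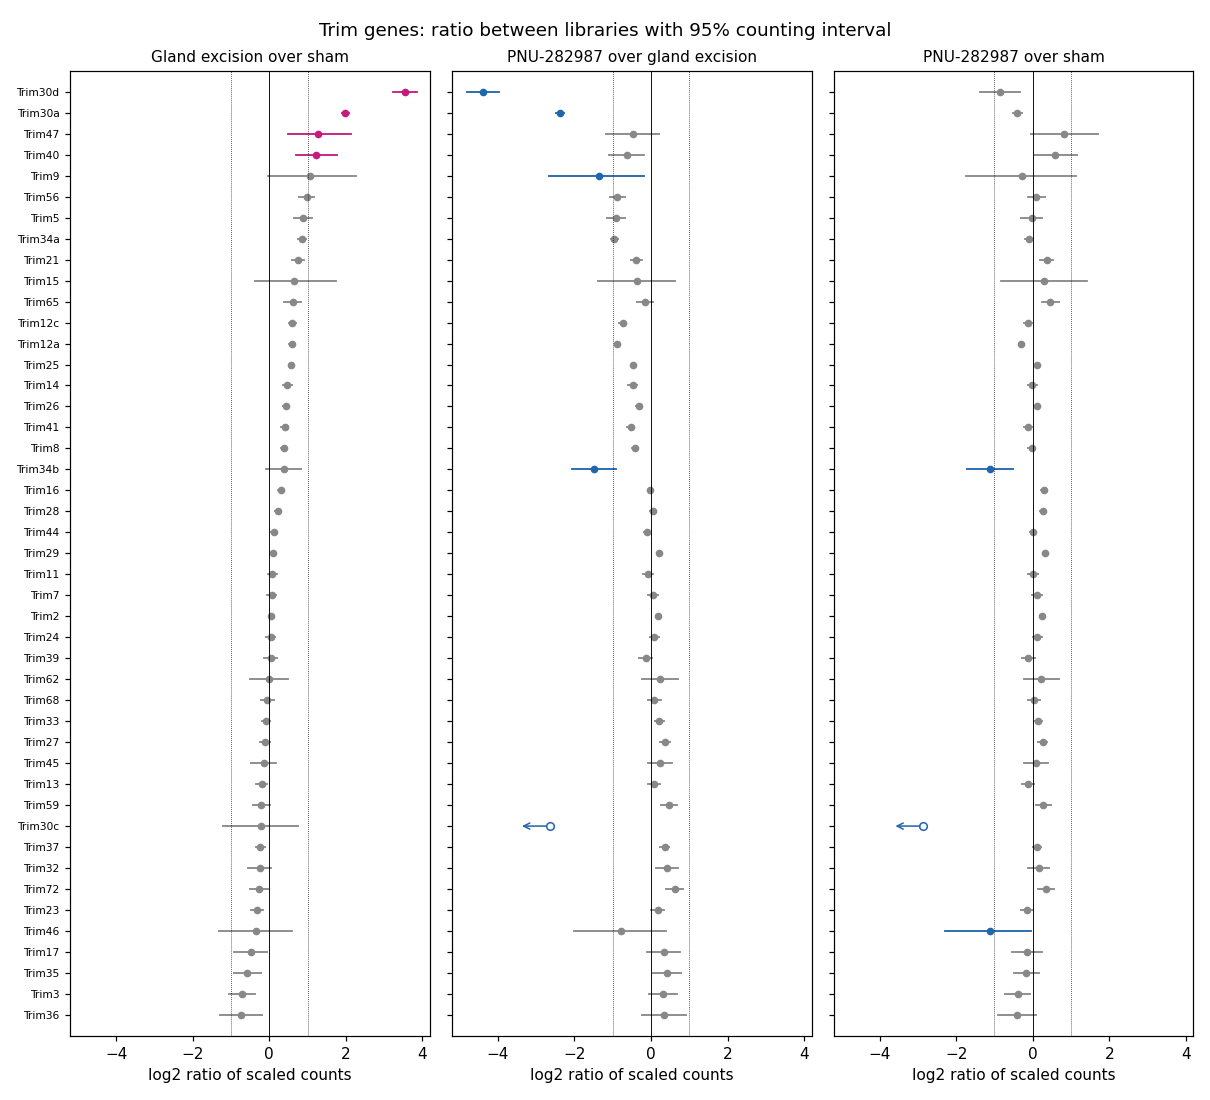
log2 ratios of scaled counts (points) with 95% counting intervals (bars) for the 45 measured Trim genes in the 3 comparisons, ordered by excision over sham, where pink marks a gene called higher, blue a gene called lower, dotted lines 2-fold, and an arrow a bound. Trim30d and Trim30a lie at 3.53 and 1.98 in excision over sham and at -4.38 and -2.38 in PNU-282987 over excision.

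No member of the PHD-bromodomain, NHL or transmembrane groups was called in excision against sham. Over all genes 4.01% were higher and 5.48% lower, and with 3 or 4 measured genes per group 0 calls is near those shares. Of the PHD-bromodomain group, chromatin readers and corepressors, Trim28 had 3899 counts in PNU-282987, 3623 in excision and 3281 in sham, Trim24 had 1210, 1090 and 1117, and Trim33 had 1531, 1258 and 1407. All 3 stayed within 1.5-fold in every comparison. The fourth of the group, Trim66, was below the minimum, with 2 counts in PNU-282987, 11 in excision and 1 in sham. Of the NHL and filamin group, Trim2, a neuronal ligase gene, had 8860, 7419 and 7527 counts, and Trim32, mutated in a human muscular dystrophy, had 247, 178 and 223. Of the 4 measured members of that group 0 were called in any comparison, too few genes to set apart from the shares of all genes.

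The transmembrane, MATH and ARF group, formed by Trim13, Trim59, Trim37 and Trim23, had 0 called members, again too few genes to set apart from the shares of all genes. Its log2 ratios for excision against sham ran from -0.31 to -0.20. Among genes with no further C-terminal domain, Trim8, linked to cytokine signalling, had 1975 counts in PNU-282987, 2514 in excision and 2020 in sham, 1.31-fold higher in excision than in sham (1.23 to 1.39). Trim44, another RING-less gene, had 2765, 2850 and 2746 counts. The epithelial genes Trim29 and Trim16 were 1.07-fold (1.06 to 1.09) and 1.23-fold (1.18 to 1.28) higher in excision than in sham. Trim41 had 1649 counts in PNU-282987, 2267 in excision and 1811 in sham, but its exons overlap those of Rack1 on the opposite strand, which had 63130, 86790 and 69296 counts. Whether counting used strand is not given in the sources used here, and reads of that pair cannot be told apart. Trim7, Trim11, Trim17, Trim27, Trim35, Trim39, Trim45, Trim62 and Trim68 stayed within 1.5-fold in all 3 comparisons, with log2 ratios between -0.57 and 0.41.

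**Figure D4:**
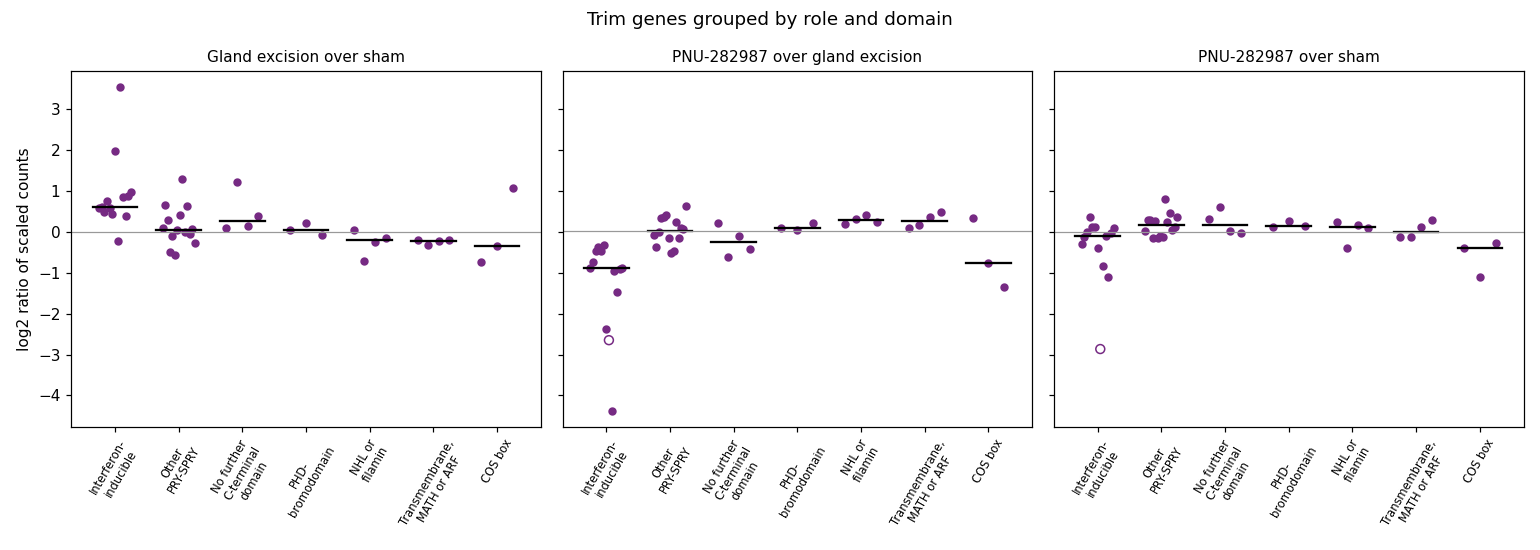
log2 ratios of scaled counts for the 45 measured Trim genes by group (points, open where a count of 0 makes a bound), with the group median as a black bar and the median of all tested genes as a grey line; genes of the interferon-inducible list are shown there and left out of their domain groups. The interferon-inducible genes have a median of 0.60 in excision over sham and -0.88 in PNU-282987 over excision.

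Trim30a and Trim30d also stood far apart between PNU-282987 and excision, but the 2 comparisons share the excision library, so neither is independent support for the other. Of the 45 members 0 were higher and 5 lower (11.1%), where 3.90% of all 14171 genes were higher and 5.62% lower. The median log2 ratio of the members was -0.11, beside 0.008 over all genes, and 0.01 when only members with at least 50 counts were kept. Trim30d was 20.8-fold lower in PNU-282987 than in excision (15.7 to 28.1) and Trim30a 5.20-fold lower (4.83 to 5.60).

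The other 3 lower members had few counts. Of these, Trim9 passed the minimum through excision alone, the library in which it was high, so its call depends on the filter. With at least 50 counts 3 members were lower. Trim34b was 2.79-fold lower in PNU-282987 than in excision (1.88 to 4.21). Of its 50-base stretches 56.8% occurred in another gene, most often Trim34a. Trim9 was 2.56-fold lower (1.13 to 6.31) on 9 counts in PNU-282987 and 22 in excision. Trim30c, at 0 counts in PNU-282987, was 6.28-fold lower than in excision when that 0 was set to a floor of 3 counts. The counting interval of its ratio of PNU-282987 to excision ran from 0 to 0.217. A count of 0 allowed up to 0.0773 CPM in PNU-282987.

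All 13 measured members of the interferon-inducible list lay below excision in PNU-282987, with log2 ratios from -4.38 to -0.32 and a median of -0.88. Of the 13, 4 were called lower, where 5.62% of all genes were. The 8 of them in the duplicated chromosome 7 block held all 4 calls, so the 13 are not separate observations. The 32 other members had a median of 0.08 with 1 called lower, Trim9. By 1.5-fold 11 of 45 members were lower (24.4%), where 11.2% of all genes were, and 1 was higher (2.22%), where 7.63% were. The lower ones beyond those called at 2-fold were Trim34a at 1.94-fold (1.81 to 2.08), Trim5 at 1.88-fold (1.60 to 2.22), Trim12a at 1.84-fold (1.75 to 1.93), Trim56 at 1.84-fold (1.61 to 2.10), Trim12c at 1.66-fold (1.56 to 1.78) and Trim40 at 1.55-fold (1.13 to 2.13).

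The member higher by 1.5-fold in PNU-282987 was Trim72, which encodes the membrane repair protein MG53 of striated muscle. It had 444 counts in PNU-282987, 276 in excision and 350 in sham, 1.54-fold higher in PNU-282987 than in excision (1.32 to 1.79). The markers of striated muscle found, 12 of 14, summed to 10.02 CPM in PNU-282987, 19.0 CPM in excision and 17.9 CPM in sham. A single gene, Tnni2, gave most of that sum, with 313 counts in PNU-282987, 623 in excision and 588 in sham, and Mylpf, the other marker past the minimum, had 46, 51 and 67. Ckm, Myh1, Myh7 and Myl1 were at 0 in PNU-282987, Acta1, Myh4, Myh7 and Myl1 in excision, and Actn3, Myh1 and Myh2 in sham. Trim55, a muscle RING finger gene, had 0 counts in PNU-282987, 1 in excision and 0 in sham.

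Between PNU-282987 and sham few members were called. Of the 45 members 0 were higher and 3 lower (6.67%), close to the 4.96% of all 14161 genes that were lower, while 2.58% of all genes were higher. The median log2 ratio was 0.03, and -0.05 when counts were scaled to library totals, beside 0.0001 and -0.08 over all genes. Within 1.5-fold in either direction lay 39 of 45 members, beside 11687 of 14161 genes. By 1.5-fold 1 member was higher, Trim40, where 5.03% of all genes were, and 4 were lower (8.89%), where 9.72% of all genes were. The 13 interferon-inducible members had 4 above sham and 9 below, with a median of -0.10. The 2 of them called lower, Trim30c and Trim34b, lie in the chromosome 7 block.

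The 3 lower members in PNU-282987 against sham were again of low count. Trim30c and Trim46 passed the minimum through sham alone, the library in which they were high, so their calls depend on the filter. With at least 50 counts 1 member was lower. Trim30c, at 0 counts in PNU-282987 and 22 in sham, was 7.29-fold lower with the 0 set to 3 counts. The counting interval of its ratio of PNU-282987 to sham ran from 0 to 0.184. Trim34b was 2.15-fold lower (1.43 to 3.29). Trim46, which organises microtubules of the axon initial segment, was 2.17-fold lower (1.02 to 4.91) on 11 counts in PNU-282987 and 24 in sham, and its exons overlap those of Krtcap2 on the opposite strand.

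Of the genes that led excision against sham, Trim30d was 1.79-fold lower in PNU-282987 than in sham (1.26 to 2.58) and Trim30a 1.32-fold lower (1.205 to 1.44), so the PNU-282987 library was the lowest of the 3 for both. All 8 measured genes of the chromosome 7 block were below sham in PNU-282987, with intervals that included equal levels for Trim5 (1.02-fold, 0.847 to 1.23) and Trim34a (1.07-fold, 0.988 to 1.16). Outside the block, Trim21 was 1.29-fold higher in PNU-282987 than in sham (1.15 to 1.45), and Trim56 was 1.07-fold higher with an interval of 0.915 to 1.25. Trim29 was 1.25-fold higher (1.23 to 1.26).

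The genes with the response element core in their promoter window can be set beside the rest. Of 34 measured members with a window, the 9 with a match were all above sham in excision, with a median log2 ratio of 0.75 and a range of 0.05 to 3.53. Trim2, at 0.05, stood at -0.02 under scaling to library totals. The 25 without a match had 13 above and 12 below and a median of 0.03, but among them Trim40 and Trim47 were called higher. Trim25 and Trim56, also without a match, were 1.49-fold and 1.96-fold higher in excision than in sham. In PNU-282987 against excision, 8 of the 9 were below and 1, Trim2, above, with a median of -0.88, against a median of 0.04 for the 25. Of the 5 members called lower there, Trim30a and Trim30d held a match, and Trim9, Trim30c and Trim34b did not. Since 6 of the 9 belong to the chromosome 7 block where genes are duplicated, they are not separate observations. All of the 9 except Trim2 are also on the interferon-inducible list, so the split by match largely repeats the values of that list. Both comparisons share the excision library.

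Of 24 genes for ubiquitin-conjugating enzymes, the partners of the RING finger, 1 was higher in excision than in sham and 0 lower. Over all genes 4.01% were higher and 5.48% lower, so the list was near the shares of all genes. The median log2 ratio of the 24 was -0.10. The higher gene was Ube2l6, the conjugating enzyme for the ubiquitin-like protein ISG15, with 1163 counts in PNU-282987, 3180 in excision and 1430 in sham. It was 2.34-fold higher in excision than in sham (2.20 to 2.49). It was also the 1 member lower in PNU-282987 than in excision (2.86-fold, 2.67 to 3.06), where 5.62% of all genes were. None of the 24 was called between PNU-282987 and sham.

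Of 14 genes for RNA and DNA sensors and their adaptors, on which TRIM ligases act, 3 were higher in excision than in sham. In the same comparison 1 was lower, and the median was 0.39. Over all genes 4.01% were higher and 5.48% lower. Dhx58, which encodes the RIG-I relative LGP2, had 459 counts in PNU-282987, 2418 in excision and 601 in sham, and was 4.23-fold higher in excision than in sham (3.87 to 4.64). Irf7 and Ifih1 were the other higher genes, and Sting1, with 67, 38 and 84 counts, was the lower one. Ddx58, the RIG-I gene and target of Trim25, was 1.46-fold higher in excision than in sham (1.38 to 1.54), beside 1.49-fold for Trim25. In PNU-282987 against excision 2 of the 14 were lower, Dhx58 and Irf7, and 0 were higher, where 5.62% and 3.90% of all genes were. Between PNU-282987 and sham 0 were called.

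Interferon signalling genes had 6 of 13 higher in excision than in sham and 0 lower, with a median of 0.18. The same 6 were lower in PNU-282987 than in excision. Irf7 is among them and is also on the list of sensors and adaptors, so these lists are not fully separate. Over all genes 4.01% were higher in excision than in sham, and 5.62% lower in PNU-282987 than in excision. The largest ratio was that of Usp18, which encodes the ISG15 protease, with 337 counts in PNU-282987, 2822 in excision and 302 in sham (9.83-fold higher in excision than in sham, 8.73 to 11.1). Isg15 was the 1 gene of the 13 lower in PNU-282987 than in sham, at 1732 and 3731 counts. Of the TRIM relatives that carry other names, 4 of 7 were measured and 0 were called. Pml, known also as TRIM19, had 1109 counts in PNU-282987, 1879 in excision and 1086 in sham, 1.82-fold higher in excision than in sham (1.69 to 1.96), while Mid1, Mid2 and Bspry stayed within 1.5-fold.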

How the data were processed

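The authors' deposited table holds raw read counts per gene for 3 mouse corneal libraries. HTSeq and R 3.2.0 appear in the submitters' processing notes. Aligner, build, annotation and strand setting: not given in the sources used here. TMM factors (edgeR 4.0.16 in R 4.3.3) were 0.980 for PNU-282987, 0.985 for excision and 1.04 for sham. A gene was kept when any library held 20 counts or more (14180 genes). Ratios used nothing added. A 0 was set to a floor of 3 counts, which makes the fold a bound that leaves out counting error in the other library. No ratio was given where both counts were 3 or fewer. Intervals are exact conditional binomial (Clopper-Pearson, 95%). They cover counting error only, and may be too narrow even for that, because amplified reads are not separate molecules. The ratios were tested on simulated data. Members and gene lists were chosen with earlier results of these data known. Named genes are all called members, members of the interferon-inducible and PHD-bromodomain lists, the 5 members with most counts, and at most 4 called genes of each other list. Some uncalled genes of other lists, such as Ddx58, Pml and Cryab, are named outside this rule. The other members named, those within 1.5-fold or near the minimum, were chosen after their values were seen. Promoter sequences are from RefSeq (GRCm38.p6), and exon lengths and shared 50-base stretches from GENCODE M21. Python 3.11.15, NumPy 2.4.6, pandas 2.3.3, SciPy 1.17.1 and matplotlib 3.10.9 were used.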

Additional observations from a re-analysis of the deposited data

How the results depend on the processing

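Scaling to library totals, by median-of-ratios factors, or to totals without lens, retina, red cell and gland genes gave the same counts of called members in all 3 comparisons: 4 above sham in excision, 5 lower in PNU-282987 than in excision and 3 lower in PNU-282987 than in sham. Without a filter on low counts these were 6, 7 and 3, where Trim66 and Trim69 joined the 6 and the 7. With at least 50 counts they were 3, 3 and 1. At 1.5-fold, 10 members exceeded sham in excision and 2 fell short of it, with 1 higher and 11 lower in PNU-282987 than in excision, and 1 higher and 4 lower in PNU-282987 than in sham. At 3-fold, 2 exceeded sham in excision, with 3 lower in PNU-282987 than in excision and 1 lower in PNU-282987 than in sham. The changes with filter and fold come from how many genes pass them. No ratio of a called member changed sign under these scalings and filters. No paired analysis was possible because each group holds 1 library, so leaving out a replicate was not possible either. Low counts widen the intervals of Trim9, Trim30c, Trim46 and Trim47, and no interval covers the spread between animals.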
